A study of Mus musculus with 16 samples.

Results

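The Krüppel-like factors (KLF) examined here were 10 transcription factors, KLF2, KLF3, KLF4, KLF5, KLF6, KLF7, KLF9, KLF10, KLF13 and KLF15, followed in cultures of mouse embryonic stem (ES) cells and of the stroma below them. Their probes were those whose target name on the array equals a member, 16 of 45281 probes and 10 of 30854 target names. The set was chosen by measured values of these arrays, since KLF4 was higher with FGF2 in co-cultures and not in PA6 cells alone, and the values with FGF2 against -GFs, with the counts of members past the limits of a call, are therefore a description with no p-value. Of the 16 probes 14 passed the filter on low signals, which left 9 of the 10 members. KLF10 had 1 probe and it was not well above background on any array.

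KLF proteins bind GC-rich DNA, GC boxes and CACC boxes among it, through zinc fingers at their carboxyl end, and their other ends recruit different activators and corepressors. KLF2, KLF4 and KLF5 belong to the circuit that keeps mouse ES cells self-renewing, where LIF acts on KLF4 through STAT3. In endothelium KLF2 and KLF4 are induced by blood flow through the kinase ERK5 and MEF2 factors, and in stroma several members act in fat cell formation and in the response to glucocorticoids.

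ES cells of a line with green fluorescent protein knocked in at the tau locus were grown up to day 7 in serum-free medium on PA6, stromal cells derived from the bone marrow of mice, and PA6 was also grown alone. Both kinds of culture received no growth factor (-GFs), human FGF2 at 20 ng/ml or murine BMP4 at 10 ng/ml per the labels, a dose for which the methods give a lower value, and factors were withdrawn after 3 days. The co-cultures comprised 2 arrays for -GFs, 3 for FGF2 and 2 for BMP4, and the PA6 mono-cultures 3 arrays of each kind. A co-culture array measures ES-derived cells and stroma together, so that fewer cells of a type and less RNA per cell cannot be told apart, and the labels describe 1 well of each treatment per biological replicate without saying whether replicates were separate cultures, so that p-values measure only the spread between these samples.

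Across the 16 arrays 37.3% to 47.0% of probes were detected. Across genes, 2 arrays of 1 group had correlations of 0.973 to 0.986, and 2 arrays from different kinds of culture 0.723 to 0.797. The columns of the deposited table fall into 3 runs, which equal the replicate numbers in PA6 and only in part in co-cultures. In co-cultures the deviations of arrays of 1 run correlated at 0.10 to 0.28, and those of other pairs at -0.28 to 0.10. In PA6 these values were 0.07 to 0.20 and -0.14 to -0.01. Arrays of 1 run thus tended to vary together, and the main fits hold no term for the run. The mean log2 level of 11 naive pluripotency genes was 10.31 to 12.35 on co-culture arrays and 6.08 to 6.53 on PA6 arrays, and that of 8 stromal genes was 11.17 to 11.84 and 12.94 to 13.51.

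The start regions of KLF2, KLF4 and KLF9 are shown because the levels of these genes were lowest in the same group of cultures and because GC boxes and CACC boxes are what the family binds. Each is the stretch of 250 bases before the start of the gene in the RefSeq annotation of mouse assembly GRCm38.p6. Of the 10 members 8 were matched by name to the windows used here, and KLF5 and KLF10 were not. Klf2 lies on the plus strand at chr8:72318812-72319061, Klf4 on the minus strand at chr4:55532476-55532725 and Klf9 on the plus strand at chr19:23140976-23141225. Capitals mark the GC box (GGGCGG), the CACC box (CACCC), the STAT motif (TTCNNNGAA) and the MEF2 motif, each searched on both strands.
Klf2: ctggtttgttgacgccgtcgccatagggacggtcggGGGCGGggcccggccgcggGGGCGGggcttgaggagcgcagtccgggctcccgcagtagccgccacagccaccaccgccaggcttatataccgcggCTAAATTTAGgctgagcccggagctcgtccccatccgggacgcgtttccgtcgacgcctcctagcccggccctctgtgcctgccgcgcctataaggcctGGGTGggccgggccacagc
Klf4: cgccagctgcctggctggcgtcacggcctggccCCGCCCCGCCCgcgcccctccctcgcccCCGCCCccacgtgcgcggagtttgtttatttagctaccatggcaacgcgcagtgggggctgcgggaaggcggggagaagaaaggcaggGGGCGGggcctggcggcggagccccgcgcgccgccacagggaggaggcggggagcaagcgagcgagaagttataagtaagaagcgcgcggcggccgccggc
Klf9: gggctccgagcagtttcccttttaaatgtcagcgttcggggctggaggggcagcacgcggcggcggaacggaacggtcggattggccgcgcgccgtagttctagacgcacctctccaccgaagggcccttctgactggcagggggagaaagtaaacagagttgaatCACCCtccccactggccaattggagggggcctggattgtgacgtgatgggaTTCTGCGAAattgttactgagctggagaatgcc
The Klf2 window held 2 GC boxes, 1 CACC box on the other strand and 1 MEF2 motif that began 118 bases before the start. The Klf4 window held 4 GC boxes, of which 2 overlapped by a base, and the Klf9 window held 1 CACC box and 1 STAT motif that began 33 bases before the start. Among all 32851 windows of this length, 32.7% held a GC box, 52.0% a CACC box, 7.02% the STAT motif and 0.508% the MEF2 motif. A match is a description of the letters and not of a bound site.

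**Figure D1:**
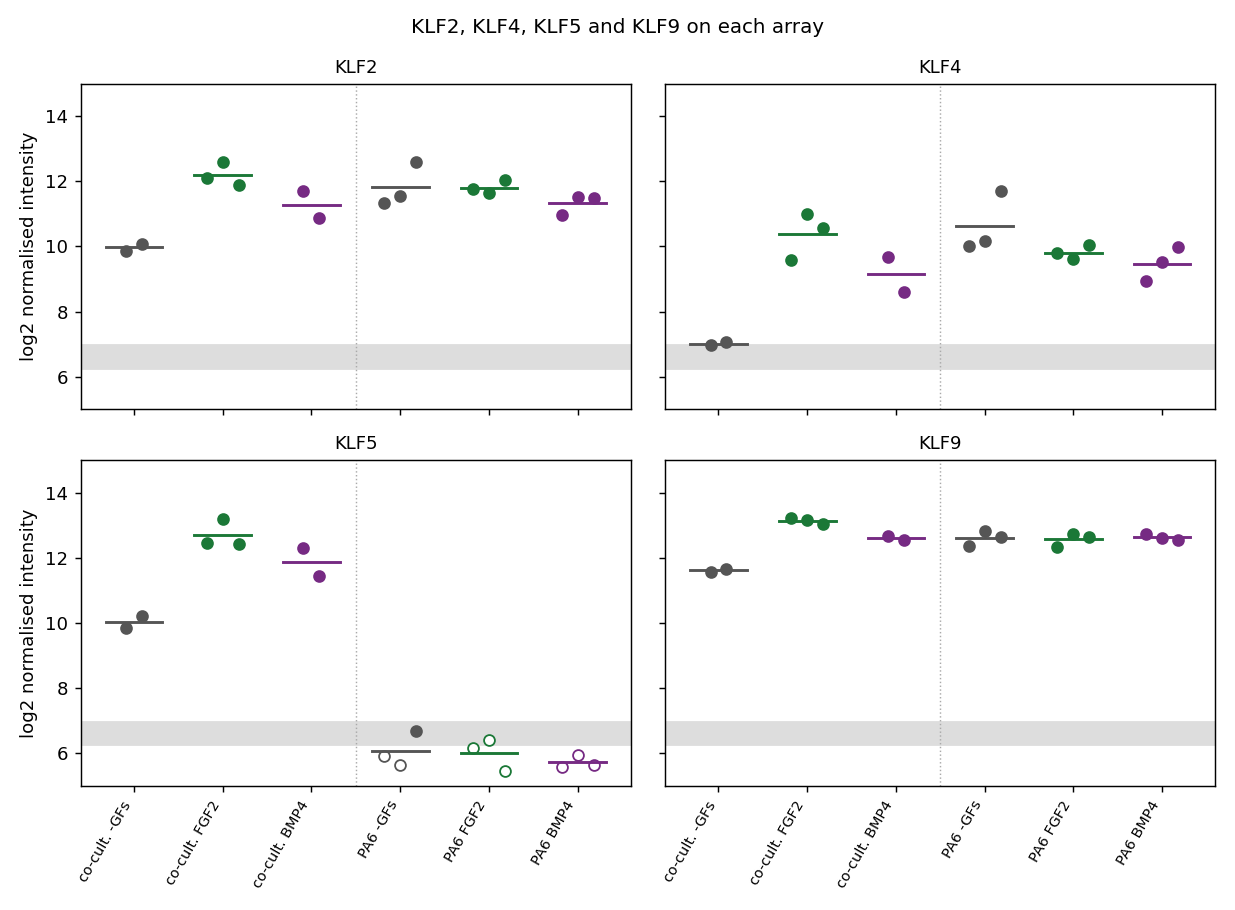
Log2 normalised intensity of KLF2, KLF4, KLF5 and KLF9 on each of the 16 arrays by group. Each point is an array, filled where detected at a p-value under 0.05, the bar is the group mean and the grey band spans the lowest detected signals of the arrays (6.25 to 6.96). The 2 co-culture arrays without growth factors lay below all other arrays for KLF2, KLF4 (on the probe shown) and KLF9, and KLF5 was near or below the band on all 9 PA6 arrays.

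KLF4, a pluripotency factor that is also made in epithelium, endothelium and stroma, was the member that set the choice. Its probe read 6.97 and 7.06 on the log2 scale on the 2 -GFs co-culture arrays, 9.57, 11.01 and 10.58 with FGF2, and 9.68 and 8.60 with BMP4. In PA6 mono-cultures it read 10.02, 10.17 and 11.70 in -GFs medium, 9.79, 9.61 and 10.03 with FGF2, and 8.94, 9.51 and 9.97 with BMP4. On this probe the -GFs co-cultures were thus apart from all other groups, near the lowest signals that counted as detected, while every neighbouring pair among the other 5 groups overlapped. Ordered by their means, the levels ran from PA6 -GFs at 10.63 ± 0.93 (SD, n = 3) through FGF2 co-cultures at 10.39 ± 0.74 (n = 3), PA6 FGF2 at 9.81 ± 0.21 (n = 3), PA6 BMP4 at 9.47 ± 0.52 (n = 3) and BMP4 co-cultures at 9.14 ± 0.77 (n = 2) to -GFs co-cultures at 7.02 ± 0.06 (n = 2).

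KLF2, which shares pluripotency and endothelial roles with KLF4, read 9.86 and 10.09 in -GFs co-cultures, 12.10, 12.58 and 11.90 with FGF2, and 11.71 and 10.86 with BMP4. PA6 arrays read 11.32, 11.55 and 12.60 in -GFs medium, 11.75, 11.63 and 12.05 with FGF2, and 10.98, 11.51 and 11.50 with BMP4. Here too the 2 -GFs co-cultures were the lowest of the 16 arrays, and the other 5 groups spanned 10.86 to 12.60. KLF9, a factor induced by thyroid hormone and glucocorticoids, had the narrowest groups of these members, at 11.57 and 11.66 in -GFs co-cultures, 13.21, 13.15 and 13.04 with FGF2, and 12.68 and 12.54 with BMP4. Its 9 PA6 arrays lay between 12.32 and 12.81, below the FGF2 co-cultures and on both sides of the BMP4 co-cultures.

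KLF5, a pluripotency and epithelial factor, was the member found on co-culture arrays and hardly on stroma. It read 9.84 and 10.21 in -GFs co-cultures, 12.47, 13.18 and 12.44 with FGF2, and 12.31 and 11.45 with BMP4. On PA6 arrays it read 5.45 to 6.67 and was detected on 1 of 9, replicate 3 in -GFs medium. Its second probe was undetected on all 16 arrays and says nothing of KLF5.

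With FGF2 the co-cultures had higher KLF4, KLF5, KLF2 and KLF9 than in -GFs medium, by 3.37 ± 0.47 (SE), 2.67 ± 0.34, 2.22 ± 0.31 and 1.52 ± 0.16 on the log2 scale, which is 10.3-fold, 6.37-fold, 4.65-fold and 2.87-fold. None of these groups overlapped. These were 4 of 9 members called, all 4 higher, where 7.42% of all 14829 genes tested were called and 5.07% were called higher, and nothing is read from that count because the set was selected on this contrast. The other 5 differed by -0.22 (KLF7) to 0.34 (KLF6), and the median over members was 0.34 against -0.06 over all genes. In PA6 mono-cultures 0 of 9 members were past the limits of a call in limma, where 0.0270% of genes were, which is no finding either since the set was chosen on it (1 of 9 had an unadjusted p under 0.05, as had 1536 of all 14829 genes). The differences there ran from -0.82 ± 0.43 for KLF4 to -0.01 ± 0.32 for KLF2, and those of KLF2, KLF5, KLF7 and KLF9 turned above 0 without single arrays. The difference between the kinds of culture was 4.19 ± 0.69 for KLF4, 2.74 ± 0.49 for KLF5, 2.23 ± 0.48 for KLF2 and 1.56 ± 0.22 for KLF9, the 4 of 9 called and all higher, where 7.90% of genes were called and 4.92% called higher. The set was selected on this difference as well, and nothing is read from the count.

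The 3 probes of KLF4 moved in 1 direction with FGF2 in co-cultures, by 3.37, 2.52 and 1.78 on the log2 scale. In PA6 mono-cultures they differed by -0.82, -0.42 and -0.94. With BMP4 in co-cultures they were further apart, at 2.12, 1.52 and 0.29. On the probe with 0.29, BMP4 replicate 2 read 6.47, below both -GFs co-culture arrays at 6.61 and 6.55. Both KLF6 probes and all 3 KLF7 probes differed by at most 0.77 in size in each FGF2 and BMP4 comparison within a kind of culture.

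The BMP4 co-cultures were set against the same 2 -GFs arrays that entered the choice of the set, so this is not an independent check of the FGF2 values. KLF5 rose by 1.86 ± 0.37 (SE), or 3.62-fold, with an adjusted p of 0.0610. KLF4 rose by 2.12 ± 0.51, or 4.36-fold, only just within the limits of a call. The KLF4 value is a description, because KLF4 was picked by these -GFs values. These 2 of 9 members were called, both higher, where 3.75% of genes were called and 2.28% were called higher. KLF2 was 1.31 ± 0.34 higher with an adjusted p of 0.119, and KLF9 went from a mean of 11.61 to 12.61 (95% interval of the difference 0.58 to 1.42) with an adjusted p of 0.0439, just under the fold that a call needed. The BMP4 and -GFs arrays of these 4 genes did not overlap. The other 5 differed by -0.35 (KLF7) to 0.11 (KLF6), and the median over members was 0.11 against 0.00 over all genes. The KLF4 call ended without either -GFs array, either BMP4 array or FGF2 replicate 3 (1.58 to 2.67) and with the mean of its probes (1.31). The KLF5 call ended without either -GFs array or BMP4 replicate 1 (1.42 to 2.04). Both calls also ended with the replicate number as a block, without a filter and at an adjusted p under 0.05. With the run of columns as a block the KLF4 call ended and the KLF5 call stayed.

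In PA6 mono-cultures limma called 0 of 9 members with BMP4, where 0% of genes were called. An unadjusted p under 0.05 was found for 1 of 9 members and for 1334 of all 14829 genes. The member was KLF4, at -1.16 ± 0.43 on the log2 scale, its 3 BMP4 arrays lying below the 3 -GFs arrays. This is a description, because the PA6 -GFs arrays entered the choice of the set by their KLF4 values. Of the 9 differences 8 were below 0, and KLF9 at 0.03 ± 0.16 turned to -0.13 when arrays were scaled by their medians. The median over members was -0.31 against -0.02 over all genes.

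The effect of BMP4 differed between the kinds of culture for KLF2 by 1.80 ± 0.50 (SE, adjusted p = 0.0812), more positive in co-cultures. For KLF5 the effect differed by 2.21 ± 0.51, a description, because KLF5 passed the filter on low signals only through the co-cultures. On PA6 arrays KLF5 was detected on 1 of 3 in -GFs medium and on 0 of 3 with BMP4. For KLF4 the effect differed by 3.28 ± 0.73, a description, because the -GFs arrays of both kinds of culture entered the choice of the set by their KLF4 values. These 3 of 9 members were called, all higher, where 4.23% of genes were called and 2.61% called higher. KLF9 differed by 0.97 ± 0.23 (adjusted p = 0.0404), under the fold that a call needed. KLF9 passed that fold without -GFs or BMP4 replicate 2 of the co-cultures (1.01 and 1.04). It also did so without -GFs or BMP4 replicate 1 of PA6 (1.09 and 1.01). The other 5 differed by -0.32 (KLF15, undetected in both of these co-culture groups) to 0.42 (KLF6). The value for KLF4 joins a rise in co-cultures to a lower level in PA6, and that for KLF5 rests on a PA6 level near background. With the run of columns as a block KLF2 was not called. Without BMP4 replicate 1 of the co-cultures the 3 calls ended, with KLF4 at 2.74, KLF5 at 1.78 and KLF2 at 1.38. KLF5 was also not called without -GFs replicate 1 of the co-cultures (2.02), nor KLF4 with the mean of its probes (2.05). KLF2 was not called without any one of 9 of the 16 arrays (1.38 to 1.92, adjusted p of up to 0.292), which were both -GFs arrays and BMP4 replicate 1 of the co-cultures, and -GFs replicate 3, all 3 FGF2 arrays and BMP4 replicates 1 and 3 of PA6.

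**Figure D2:**
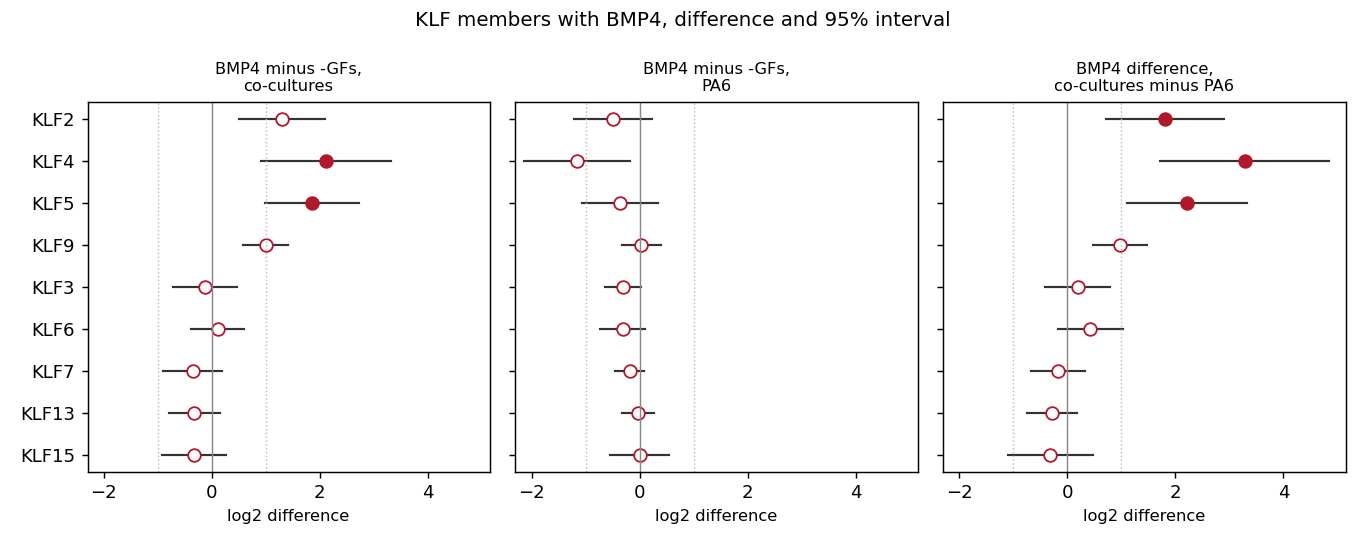
Log2 difference of 9 KLF members between BMP4 and -GFs in co-cultures (left), in PA6 mono-cultures (middle) and the difference of these effects (right). Points are limma estimates, filled where called, lines are 95% intervals and dotted lines mark a log2 difference of 1 in size. KLF2, KLF4, KLF5 and KLF9 lie to the right of 0 in the left and right panels, at up to 2.12 and 3.28.

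Between the factors themselves, co-cultures with BMP4 read lower than co-cultures with FGF2 for all 9 members, though KLF3, KLF6, KLF7 and KLF13 turned to 0.08 to 0.15 when arrays were scaled by their medians. Limma called 0 of 9, where 1.44% of genes were called. An unadjusted p under 0.05 was found for 5 of 9 members, KLF4 among them, and for 2104 of all 14829 genes. With the run of columns in the deposited table as a block, an alternative chosen after seeing the data, 2 of 9 were called, KLF2 at -1.02 (adjusted p = 0.0855) and KLF4 at -1.55. The FGF2 arrays are those that entered the choice of the set. KLF4, given as a description, was 1.25 log2 units below its FGF2 level, and the groups overlapped. KLF2 differed by -0.91 (95% interval -1.64 to -0.18), KLF5 by -0.82 (-1.61 to -0.02) and KLF9 by -0.52 (-0.91 to -0.14), with adjusted p of 0.254, 0.340 and 0.218. The groups of these 3 genes did not overlap. KLF15 differed by -0.63 (-1.17 to -0.09), but it was undetected on both BMP4 arrays and on 2 of 3 FGF2 arrays.

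KLF6, a widely expressed factor of the early response to injury, read 12.22 and 12.41 in -GFs co-cultures, 12.56, 12.51 and 12.90 with FGF2, and 12.36 and 12.48 with BMP4, against 13.55 to 14.33 on the 9 PA6 arrays. KLF3, a repressor that binds CtBP, read 7.62 to 8.33 on the 7 co-culture arrays and 9.31 to 9.92 on the 9 PA6 arrays. The co-culture and PA6 ranges of both genes were apart.

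KLF7, which acts in neuron outgrowth, read 11.20 to 11.84 in co-cultures and 12.02 to 12.41 in PA6. KLF13, which recruits the SIN3A corepressor as KLF9 does, read 10.45 to 11.04 and 11.40 to 11.86. KLF15, a glucocorticoid-induced factor of metabolism and fat cells, read 5.65 to 6.65 in co-cultures, detected on 1 of 7 arrays, and 6.67 to 7.79 in PA6, detected on 8 of 9. All 3 were higher on every PA6 array than on any co-culture array, KLF15 only by 6.67 against 6.65, within the range of the lowest detected signals. For these members, as for KLF3 and KLF6, the share of all genes with ranges apart was not counted. Between the kinds of culture in -GFs medium 44.1% of all genes were called. KLF10, induced early by TGFB, read 5.42 to 5.96 on the 16 arrays and was detected on none.

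**Figure D3:**
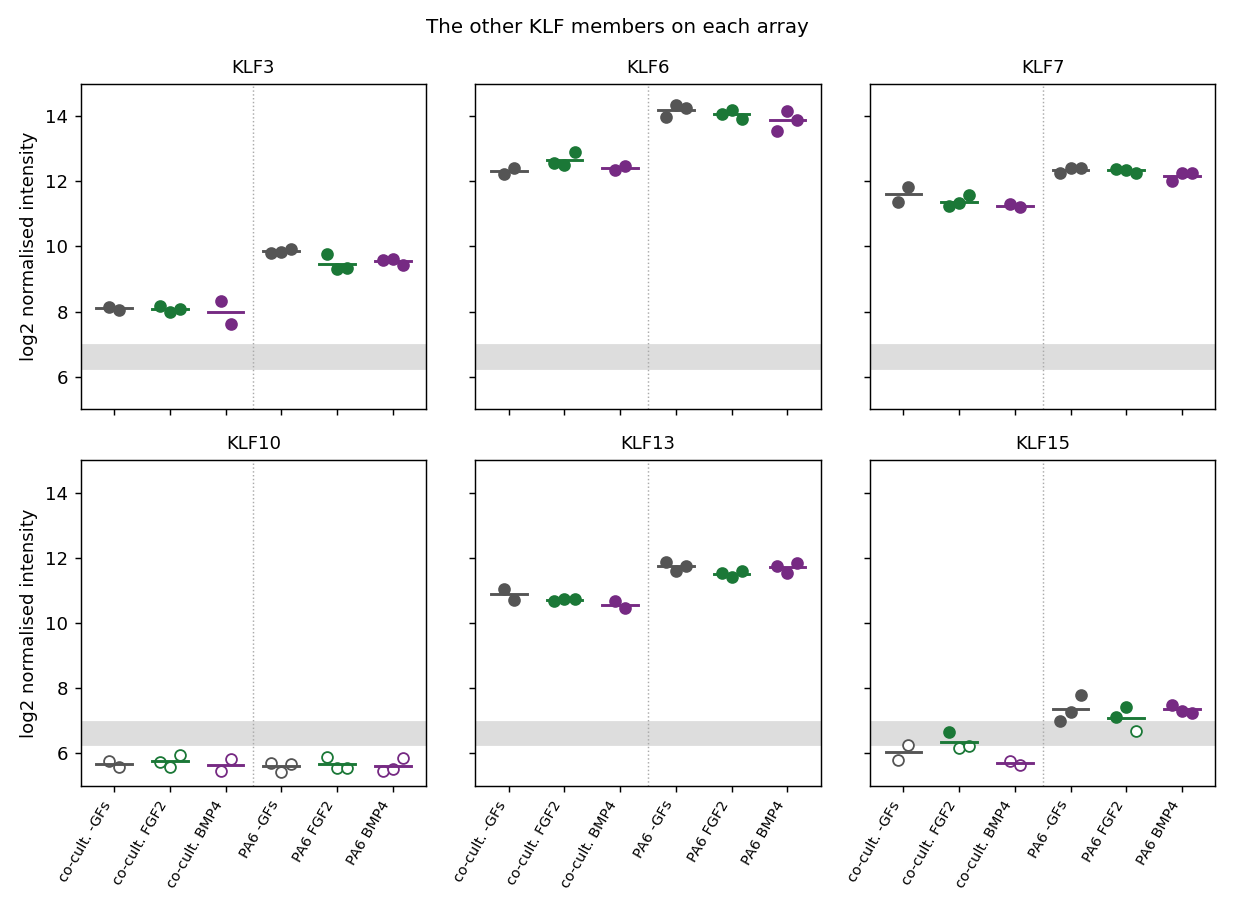
Log2 normalised intensity of KLF3, KLF6, KLF7, KLF10, KLF13 and KLF15 on each array by group, drawn as for KLF2, with open points for arrays on which the probe was undetected. KLF3, KLF6, KLF7, KLF13 and KLF15 were lower on all 7 co-culture arrays than on all 9 PA6 arrays, KLF15 only by 6.65 against 6.67. How many of all genes were apart in this way was not counted. KLF10 stayed at 5.42 to 5.96, undetected.

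In -GFs medium 6 of 9 members were called between co-cultures and PA6, where 44.1% of genes were called, so that a call in this comparison was common among all genes. The -GFs arrays of both kinds are the baselines of the comparisons that chose the set. Only KLF5 was higher in co-cultures (22.3% of genes were called higher), at a mean of 10.03 against 6.08 in PA6, where it was detected on 1 of 3 arrays. KLF5 passed the filter on low signals only through the co-cultures and KLF15 only through PA6, so that a difference between the kinds of culture was fixed by the filter and neither is given a p. Lower in co-cultures (21.8% of genes) were KLF6 by -1.87 ± 0.20 (SE), KLF2 by -1.85 ± 0.36 and KLF3 by -1.75 ± 0.19, with adjusted p of 2.04e-06, 4.80e-04 and 3.54e-06. As a description, KLF4 differed by -3.61 ± 0.52, or 12.2-fold, and KLF15, undetected in these co-cultures, was at least 1.76-fold lower. KLF9 (-0.99 ± 0.16), KLF13 (-0.85 ± 0.15) and KLF7 (-0.75 ± 0.17) were under the fold that a call needed, and all 3 were called when arrays were scaled by their medians. The median over members was -1.32 against 0.03 over all genes.

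With BMP4, in arrays that took no part in choosing the set, 5 of 9 members were called between co-cultures and PA6, where 42.4% of genes were called. KLF3, KLF6 and KLF13 were lower (20.3% of genes were called lower), by -1.56 ± 0.19, -1.45 ± 0.20 and -1.14 ± 0.15, with adjusted p of 1.18e-05, 2.54e-05 and 2.11e-05. The other two called were fixed by the filter as above, KLF15 at least 2.01-fold lower and KLF5 at least 32.7-fold higher (22.0% of genes were called higher). KLF2, KLF4 and KLF9 were not called, at -0.04 (95% interval -0.81 to 0.72), -0.33 (-1.44 to 0.78) and -0.03 (-0.38 to 0.33), and the arrays of both kinds of culture overlapped for each. This holds for the KLF4 probe that represented the gene. Its other probes were lower in co-cultures, by -1.44 and -1.08, and on the first of them the arrays did not overlap. The intervals of KLF2 and KLF9 do not reach a log2 difference of 1 in size, while that of KLF4 does. KLF7 was 0.93 lower, under the fold that a call needed.

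**Figure D4:**
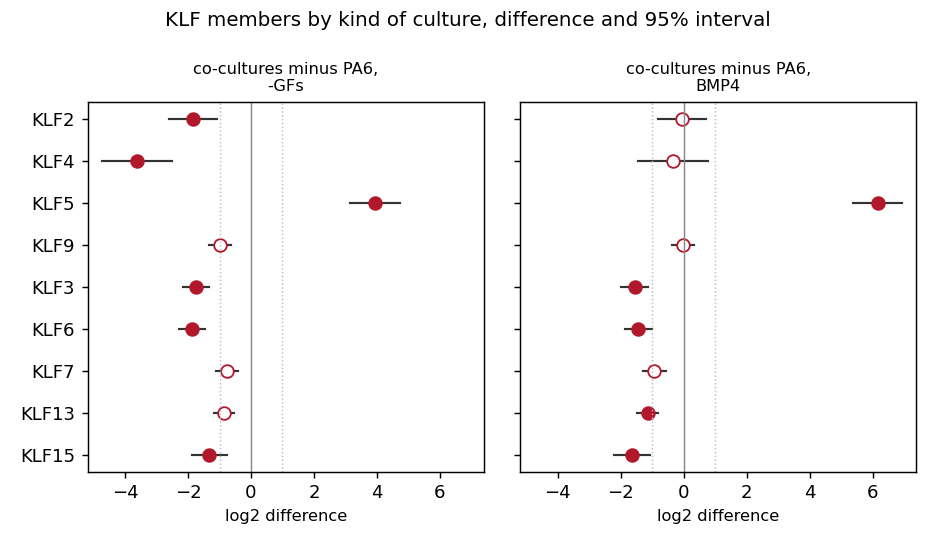
Log2 difference of 9 KLF members between co-cultures and PA6 mono-cultures without growth factors (left) and with BMP4 (right). Points are limma estimates, filled where called, and lines are 95% intervals. KLF2, KLF4 and KLF9 lie at -1.85, -3.61 and -0.99 on the left and at -0.04, -0.33 and -0.03 on the right, while KLF3, KLF6 and KLF15 are below -1 in both.

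Stromal genes were lower in co-cultures beside these values. Of 8 measured, 5 were called lower in -GFs medium and the same number with BMP4, with medians of -2.21 and -1.43, and 3 were not called. COL1A1, a fibrillar collagen, was 2.48 lower in -GFs co-cultures and PDGFRB, a receptor of mesenchymal cells, 3.49 lower, whereas DCN, a matrix proteoglycan, was 0.49 lower. The mean level of the 8 genes was 11.31 to 11.71 in -GFs, 11.17 to 11.83 in FGF2 and 11.83 to 11.84 in BMP4 co-cultures, the BMP4 arrays lying just above the others. With FGF2 or BMP4 limma called 0 of 8 in co-cultures. Of 7 adipocyte genes, a fate that stromal cells can take, 3 were called lower and 1 higher in -GFs co-cultures than in PA6 (median -2.53), and 5 lower with BMP4 (median -3.23). With BMP4 against -GFs their median was 0.89 in co-cultures and 1.10 in PA6, where ADIPOQ, an adipocyte hormone, read 13.76 against 9.87 and was not called. The part of stromal cells and adipocytes in the KLF values was not tested.

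Many genes with which KLF2, KLF4 and KLF5 keep ES cells pluripotent were lower in -GFs co-cultures than in those with a factor. Of 11 measured, 7 were higher with FGF2 than in -GFs co-cultures by the same call, with a median of 2.70 against -0.06 over all genes, as a description. NR5A2, a nuclear receptor of the self-renewal circuit, was 3.25 higher, whereas GBX2, which LIF induces in ES cells, read 11.57 with FGF2 and 11.56 with BMP4 against 12.30 and was not called. With BMP4 6 of 11 were called higher, with a median of 1.31, among them NR5A2 at 2.11 ± 0.33 (SE, adjusted p = 0.0310) and NANOG at 1.31 ± 0.25 (adjusted p = 0.0529). The mean level of the 11 genes was 10.31 to 10.35 in -GFs, 12.15 to 12.35 in FGF2 and 11.03 to 11.74 in BMP4 co-cultures. POU5F1, the central pluripotency factor, read 10.90 and 12.53 on the 2 BMP4 arrays, which were also apart for KLF2, KLF4 and KLF5. Whether cells that stayed pluripotent set the KLF values was not tested.

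Components of routes known to act on KLF genes were measured too. In the LIF and STAT3 route 1 of 6 measured genes was higher with FGF2 in co-cultures, LIFR, the receptor chain of LIF, which was undetected in -GFs co-cultures and at least 1.78-fold higher, and 0 of 6 were called with BMP4. The median of the 6 was 0.77 with FGF2 against -0.06 over all genes, with SOCS3, which restrains STAT3 signalling, at 11.59 against 10.46 and not called, and it was 0.37 with BMP4. LIF itself did not pass the filter on low signals. It was detected on 2 of 3 FGF2 co-culture arrays and on no other array. Its mean there, 6.37, was near that of PA6 with FGF2 (6.36) and in -GFs medium (6.30), so detection alone set these arrays apart. In the route from MAP3K3 to MEF2 factors 0 of 4 were called with either factor. Among 6 corepressors of the SIN3 and CtBP kind also 0 were called with either.

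Of 7 genes of the glucocorticoid receptor and its targets 2 were higher with FGF2 in co-cultures, SGK1, a kinase that regulates ion transport, by 2.01 ± 0.28 and HSD11B1, which regenerates active glucocorticoid, by 1.25 ± 0.21, and 0 with BMP4. FKBP5 and TSC22D3, common targets of that receptor, differed by 0.36 and -0.52 with FGF2 and were not called. Of the 7 adipocyte genes 0 were called with either factor in co-cultures. Of 16 other KLF and SP genes 8 were above the filter, and 1 was called, SP5, a target of WNT signalling, which rose by 2.12 ± 0.47 with BMP4 (adjusted p = 0.0790).

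Among markers of cells that KLF2, KLF4 and KLF5 also mark, 2 of 4 measured endothelial genes were called higher with both factors, PECAM1 by 3.24 with FGF2 and 1.98 with BMP4, and TEK, undetected in -GFs co-cultures, at least 5.86-fold and 3.28-fold. The other two were not called, NOS3 at 7.54 with FGF2 and 6.90 with BMP4 against 8.01, and THBD at 7.37 and 7.93 against 8.53. The other 4 genes of that list, CDH5 and KDR among them, did not pass the filter on low signals. Of 7 epithelial genes 1 was higher with FGF2, CDH1, the cadherin of epithelia and of ES cells, by 2.37, and 4 with BMP4. Among these was TRP63, a keratinocyte gene undetected in -GFs medium, which rose by 20.3-fold or more (adjusted p = 0.00251). KRT14, another such gene, rose by 110-fold or more. This is a description, because KRT14 passed the filter on low signals only through the BMP4 co-cultures. Of 5 neural genes 2 were lower with FGF2 and 1 with BMP4, HES5, a target of Notch, by -2.11 and -1.38. The mean level of the epithelial genes was 7.52 to 7.67 in -GFs, 7.60 to 8.17 in FGF2 and 10.71 to 11.13 in BMP4 co-cultures. The part of these cells in the KLF values was not tested.

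The genes whose profile lay nearest to a member were found as those with the smallest root mean square difference between log2 levels over the 16 arrays, each gene set to its own mean, among 14828 other genes. For KLF4 the nearest of all was KLF2, at 0.56, followed by CD97, an adhesion receptor, at 0.58, NFE2L2, a factor of the oxidative stress response, at 0.69, MOV10, an RNA helicase, at 0.69 and SGK1 at 0.70. For KLF2 they included MOV10 at 0.30, CHRNB1 at 0.34 and ABCB1B at 0.35, with KLF9 at rank 18 and KLF4 at rank 83. The genes named here for both members were lowest in -GFs co-cultures, as shown by MOV10 at 6.17 ± 0.40 (SD, n = 2) there and 7.56 to 8.27 as the means of the other groups.

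For KLF5 the nearest were TCFCP2L1, a pluripotency factor, at 0.38, TEX19.1, a germ cell and ES cell gene, at 0.43, KIT, the receptor of stem cell factor, at 0.47, AARD at 0.50 and LOC100040479 at 0.51. TCFCP2L1 had mean levels of 9.76 in -GFs, 12.71 in FGF2 and 11.51 in BMP4 co-cultures and 5.79 to 5.92 in PA6, the steps that KLF5 took. No other KLF member was nearer to KLF5 than rank 6636. A small distance says that levels were alike over these arrays and nothing of function or control.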

How the data were processed

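RNA of 16 cultures was hybridised to Illumina MouseWG-6 v2.0 BeadChips. Per the labels and methods, the authors processed the scans with GenomeStudio 2011.01. The deposited table gives an average bead intensity per probe and array, not normalised between arrays, and a detection p-value. It names probes and target genes and holds no coordinates.

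Intensities deposited by the authors were background corrected, quantile normalised and put on the log2 scale with an offset of 16 (neqc, limma 3.58.1, R 4.3.3). A probe was kept if all arrays of 1 or more groups had a detection p under 0.05, and the probe with the largest mean represented a gene. The number of arrays limits the precision. Linear models (limma) used the 7 arrays of co-cultures or the 9 of PA6, and all 16 for comparisons across both. A gene was called at a Benjamini-Hochberg adjusted p under 0.1 over all 14829 genes and a log2 change over 1 in size, the limits in the methods. A gene undetected in a group is given against the lowest detected signals there.

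The members and gene lists were chosen with earlier results of these data known. All members, at most 4 genes of a list and up to 5 nearest profiles of KLF2, KLF4 and KLF5 were named, and some of these are not reported here. Fits were checked on simulated data. Alternatives covered scaling, background, offset, filters, probes, limits, arrays fitted, blocks and single arrays left out.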

Additional observations from a re-analysis of the deposited data

Results flagged for a closer look

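The effect of BMP4 on 3 members differed between co-cultures and PA6 mono-cultures by the interaction term of the fit to all 16 arrays. The difference was 1.80 on the log2 scale for KLF2, 3.28 for KLF4 and 2.21 for KLF5, each more positive in co-cultures. The -GFs arrays in it also entered the choice of the set by their KLF4 values, so the value of KLF4 is a description. That of KLF5 is a description too, since it was detected on 1 of 3 PA6 arrays in -GFs medium and on 0 of 3 with BMP4. Groups of 2 or 3 arrays were too small for a test of single arrays that stand apart.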

How the results depend on the processing

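Members called with FGF2 were 3 or 4 under all alternatives in co-cultures and for the difference between cultures, and 0 in PA6. With BMP4 in co-cultures the count of 2 fell to 1 with an offset of 50, with probes detected on at least 1 array and with the mean of probes, and to 0 with probes detected on all 16 arrays, without a filter and at an adjusted p under 0.05. It was 0 to 2 when single arrays were left out. For the difference of the BMP4 effect the count of 3 became 1 with probes detected on all 16 arrays, which leaves KLF5 untested, and 0 to 4 when single arrays were left out. Between the kinds of culture with BMP4 it was 3 in place of 5 under that filter, with KLF5 and KLF15 untested. The cause of the other changes was not tested.

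Deviations of arrays with the same replicate number correlated at -0.20 to 0.28 in co-cultures (6 pairs) and 0.07 to 0.20 in PA6 (9 pairs), against -0.28 to 0.25 and -0.14 to -0.01 for other numbers. In PA6, where number and run are the same, every array correlated best with its own. Not all pairs were over 0.1 and the main fits used no block. With the replicate number as a block the count for BMP4 in co-cultures was 0, without KLF4 and KLF5, and all genes called there went from 556 to 258. The columns of the deposited table fall into 3 runs, each with at most 1 array of a group. With the run as a block, an alternative chosen after seeing the data, the count was 1 for BMP4 in co-cultures and 2 for BMP4 against FGF2.

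Directions turned only for values that were not called. Scaling by medians moved the median of all genes from 0.04 to 0.29 for BMP4 against FGF2, and KLF3, KLF6, KLF7 and KLF13 then read 0.09, 0.08, 0.15 and 0.13, all below that median. KLF6 read 0.03 there with the mean of probes. Under that scaling KLF9 with BMP4 in PA6 was -0.13 and the difference of the BMP4 effect was 0.08 for KLF7. With FGF2 in PA6 KLF2, KLF5, KLF7 and KLF9 spanned -0.27 to 0.37, -0.29 to 0.22, -0.07 to 0.02 and -0.16 to 0.09 without single arrays, in co-cultures KLF3 and KLF7 -0.06 to 0.02 and -0.46 to 0.02, and for the difference of the FGF2 effect KLF7 and KLF13 -0.44 to 0.04 and -0.10 to 0.22. Without single arrays KLF3 spanned -0.48 to 0.23 with BMP4 in co-cultures, -0.46 to 0.25 against FGF2 and -0.16 to 0.54 for the difference of the effect, where KLF7 spanned -0.41 to 0.07. In PA6 with BMP4 KLF9, KLF13 and KLF15 spanned -0.09 to 0.14, -0.09 to 0.05 and -0.18 to 0.22, and between the kinds of culture KLF2, KLF4 and KLF9 spanned -0.47 to 0.38, -0.87 to 0.21 and -0.10 to 0.05.

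The count of all genes called was 2 to 574 around 214 for BMP4 against FGF2, 32 to 870 around 556 for BMP4 in co-cultures, 106 to 764 around 628 for the difference of the BMP4 effect 324 to 1675 around 1100 for FGF2 in co-cultures and 451 to 1627 around 1172 for the difference of the FGF2 effect. In PA6 it was 0 to 32 around 4 with FGF2 and 0 to 6 around 0 with BMP4, and between the kinds of culture 3480 to 10123 around 6540 without factors and 3236 to 9981 around 6283 with BMP4. Scaling by medians raised the share of higher calls from 52.3% to 63.8% for BMP4 against FGF2, from 61.6% to 77.4% for the difference of the BMP4 effect and from 62.3% to 75.2% for that of FGF2, and lowered it from 68.4% to 59.5% for FGF2 in co-cultures and from 50.6% to 46.0% between the kinds of culture without factors.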
